A study of Mus musculus with 8 samples.

Results

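The genes described here encode the machinery of oxidative phosphorylation. They were taken as every gene symbol of the platform annotation that starts with Nduf, Uqcr or Atp5, or with Cox followed by 4, 5, 6, 7 or 8, together with Sdha, Sdhb, Sdhc, Sdhd, Cyc1 and Cycs. Of 18193 genes with a probe set of their own on the array, 92 met this definition. By their symbols 36 are subunits of complex I, 8 are complex I assembly factors (Ndufaf1 to Ndufaf8), 4 belong to complex II, 9 to complex III, 17 to complex IV and 17 to ATP synthase, and 1 is cytochrome c. Where several probe sets stood for a gene, as for 52 of the 92, the one whose mean over all arrays was highest represented it. A further 8 symbols (Ndufa11, Ndufa11b, Ndufab1-ps, Ndufb4b, Ndufb4c, Ndufs5-ps, Ndufs6 and Ndufs6b) occur only in probe sets that name several genes and were not analysed here.

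RNA was measured on Affymetrix mouse whole-genome arrays in 4 groups of 2 arrays, each array from an independent culture. Wild-type (wt) mouse embryonic stem cells (mESCs) were of the line TC-1, and menin-null mESCs were of the line 3.2N, which lack menin after knockout of Men1, and the labels give the strain background as 129S6/SvEvTac. Both lines were freed of feeder cells, and both were also differentiated in culture into pancreatic islet-like endocrine cells (PILECs), which gave the other 2 groups. Each genotype is a single line, so an effect of menin loss and a difference between the lines cannot be told apart. Values are deposited log2 signals, a difference of 1 is 2-fold, and a gene is said to rise or fall where limma's p, adjusted over all 18193 genes, was under 0.05. Beside these tests, an exact permutation test of 2 arrays against 2 cannot go below p = 0.333. Men1 itself was lower in menin-null cells, with log2 values of 9.90 and 9.97 in wt mESCs against 7.77 and 7.82, and of 10.06 and 9.92 in wt PILECs against 7.95 and 8.02.

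Oxidative phosphorylation takes place in the inner mitochondrial membrane. Complex I and complex II pass electrons from NADH and succinate to ubiquinone, complex III passes them on to cytochrome c, and complex IV hands them to oxygen, while ATP synthase uses the proton gradient that results. Embryonic stem cells are known to lean on glycolysis, and several complex IV subunits exist as tissue-specific isoforms.

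The PILEC cultures were checked against marker genes. All 8 pluripotency markers fell in PILECs of both genotypes. Of 12 islet endocrine markers measured, 6 rose in wt and 8 in menin-null PILECs, among them Nkx2-2, Chga and Sst, and 1 fell in each, Neurod1 in wt (-0.44) and Pdx1 in menin-null cells (-0.52). Gcg, Iapp, Pcsk1, Pdx1 and Slc2a2 had means under 7 in every group. Of these, Slc2a2 was among the genes that rose in both genotypes, and Gcg and Iapp among those that rose in menin-null cells. Ins2 differed by 0.41 in wt (adjusted p = 0.053 by limma). Markers of other cell types rose as well, with 8 of 8 neuronal genes in wt and 7 of 8 in menin-null PILECs, 6 of 7 fibroblast genes in both, and 11 and 9 of 17 striated muscle genes, of which 3 and 4 fell. The part of these other cell types in the differences below was not tested. In such bulk RNA, fewer cells of a type and less RNA per cell cannot be told apart.

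Promoter windows were available from RefSeq (GRCm38.p6) for 75 of the 92 genes, each holding 300 bases, from 250 before the start to 50 after it. The short motifs were looked for on both strands, namely GCGCATGC, the core of the site of the respiratory factor NRF1, CCGGAAG, an ETS-type site as bound by GABP, and AAGATGGC, a YY1 site. The NRF1 core was in 15% of 80 windows (some genes have several) against 2.71% of all 32851 windows, the ETS letters in 23.8% against 8.86%, and the YY1 letters in 12.5% against 2.75%. A match is only a match of letters. The NRF1 and ETS letters themselves contain CG, and the windows differed in CpG dinucleotides, as given below. The part of this in the shares was not tested. Below are, as examples, the windows of 5 genes named in the results, in lower case with motif matches in capitals. Counts of rises and falls for all genes with each motif are given further on. Cox7a1 (chr7:30183921-30184220, plus strand) and Cox6b2 (chr7:4753045-4753344, minus strand) are tissue-type complex IV isoforms whose windows hold none of the motifs. Cycs (chr6:50566520-50566819, minus strand) and Uqcr11 (chr10:80406772-80407071, minus strand) fell in PILECs and hold the NRF1 core, in Uqcr11 beside an ETS match. Ndufa3 (chr7:3617123-3617422, plus strand) rose and holds the YY1 letters.
Cox7a1: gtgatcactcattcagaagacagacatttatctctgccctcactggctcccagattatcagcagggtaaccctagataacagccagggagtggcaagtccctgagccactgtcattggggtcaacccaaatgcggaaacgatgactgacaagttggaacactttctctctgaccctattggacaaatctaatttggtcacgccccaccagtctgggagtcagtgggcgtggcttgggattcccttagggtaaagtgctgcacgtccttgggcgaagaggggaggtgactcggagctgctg
Cox6b2: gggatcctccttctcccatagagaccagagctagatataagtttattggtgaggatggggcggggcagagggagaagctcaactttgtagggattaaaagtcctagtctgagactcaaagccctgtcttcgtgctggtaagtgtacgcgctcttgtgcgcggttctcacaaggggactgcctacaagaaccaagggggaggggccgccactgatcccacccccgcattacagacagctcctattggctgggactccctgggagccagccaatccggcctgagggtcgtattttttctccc
Cycs: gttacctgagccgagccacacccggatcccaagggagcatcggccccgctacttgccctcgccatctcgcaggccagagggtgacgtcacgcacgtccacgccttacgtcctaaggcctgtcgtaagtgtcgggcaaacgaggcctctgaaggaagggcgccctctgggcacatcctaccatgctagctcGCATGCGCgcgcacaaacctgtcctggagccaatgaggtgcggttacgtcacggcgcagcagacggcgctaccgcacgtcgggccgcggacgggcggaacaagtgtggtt
Uqcr11: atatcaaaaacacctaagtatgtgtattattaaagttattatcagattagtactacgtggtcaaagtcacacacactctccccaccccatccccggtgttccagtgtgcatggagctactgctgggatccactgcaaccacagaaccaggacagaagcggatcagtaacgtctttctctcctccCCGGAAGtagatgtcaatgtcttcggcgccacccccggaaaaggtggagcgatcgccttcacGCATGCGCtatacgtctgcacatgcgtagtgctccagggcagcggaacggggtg
Ndufa3: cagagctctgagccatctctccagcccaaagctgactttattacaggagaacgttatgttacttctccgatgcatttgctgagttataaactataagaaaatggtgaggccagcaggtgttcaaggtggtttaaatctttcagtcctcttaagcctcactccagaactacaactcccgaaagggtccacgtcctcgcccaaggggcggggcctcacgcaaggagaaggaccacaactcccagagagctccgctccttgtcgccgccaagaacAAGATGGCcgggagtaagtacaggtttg
The windows also differed in CpG dinucleotides, of which the median was 20 in windows of the oxidative phosphorylation genes and 7 in all windows. The lowest counts were 2 for Cox8b, 7 for Cox7a1, 8 for Ndufc2, a common complex I subunit, and 10 for both Cox6b2 and Cox7b2, while Cycs had 32.

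The first comparison asked how the respiratory chain genes change when mESCs become PILECs. More of them fell than rose, and most differences were small. In wt cells 10 rose and 33 fell of 92, which is 46.7%, against 63.1% of all genes called (27.8% higher and 35.3% lower). In menin-null cells 9 rose and 47 fell, which is 60.9%, against 65% of all genes (28.9% higher and 36.1% lower). With a variance trend in the model the shares were 70.7% against 63.4% of all genes in wt and 75% against 65.1% in menin-null cells, so whether fewer of these genes than of all genes were called depended on that setting. The median difference was -0.16 in wt and -0.25 in menin-null cells, against -0.08 and -0.07 over all genes. Over the 11011 genes with a mean of at least 7 it was -0.14 and -0.19. With a mean of at least 10, the medians were -0.137 and -0.231 for the oxidative phosphorylation genes and -0.231 and -0.332 for all genes. Of all genes at that level 49.9% fell in wt and 54.3% in menin-null cells, against 31.6% and 50% of the oxidative phosphorylation genes. A change of at least 2-fold was seen in 5 of the 92 genes in wt cells (5.43%, against 30.4% of all genes) and in 7 in menin-null cells (7.61% against 31.7%). With arrays quantile normalised again the split was 18 higher and 27 lower in wt, and 19 higher and 38 lower in menin-null cells, and the medians were -0.06 and -0.11.

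Across genotypes, 33 genes fell in both, 7 rose in both (Atp5d, Cox7a2l, Ndufa3, Ndufb9, Ndufv3, Sdhc and Uqcrh) and 33 passed in neither. A further 14 fell with the test passed in menin-null cells alone, such as Ndufs8, Uqcrfs1 and Sdhb. Atp5h, Ndufb11 and Ndufc2 passed as higher in wt alone, and Ndufa4l2 and Ndufc1 in menin-null cells alone. A call in 1 genotype alone does not show that the genotypes differed; that difference is tested further on. Where a called gene had other probe sets, 42 of 48 of them had the same sign in wt and 52 of 57 in menin-null cells.

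**Figure D1:**
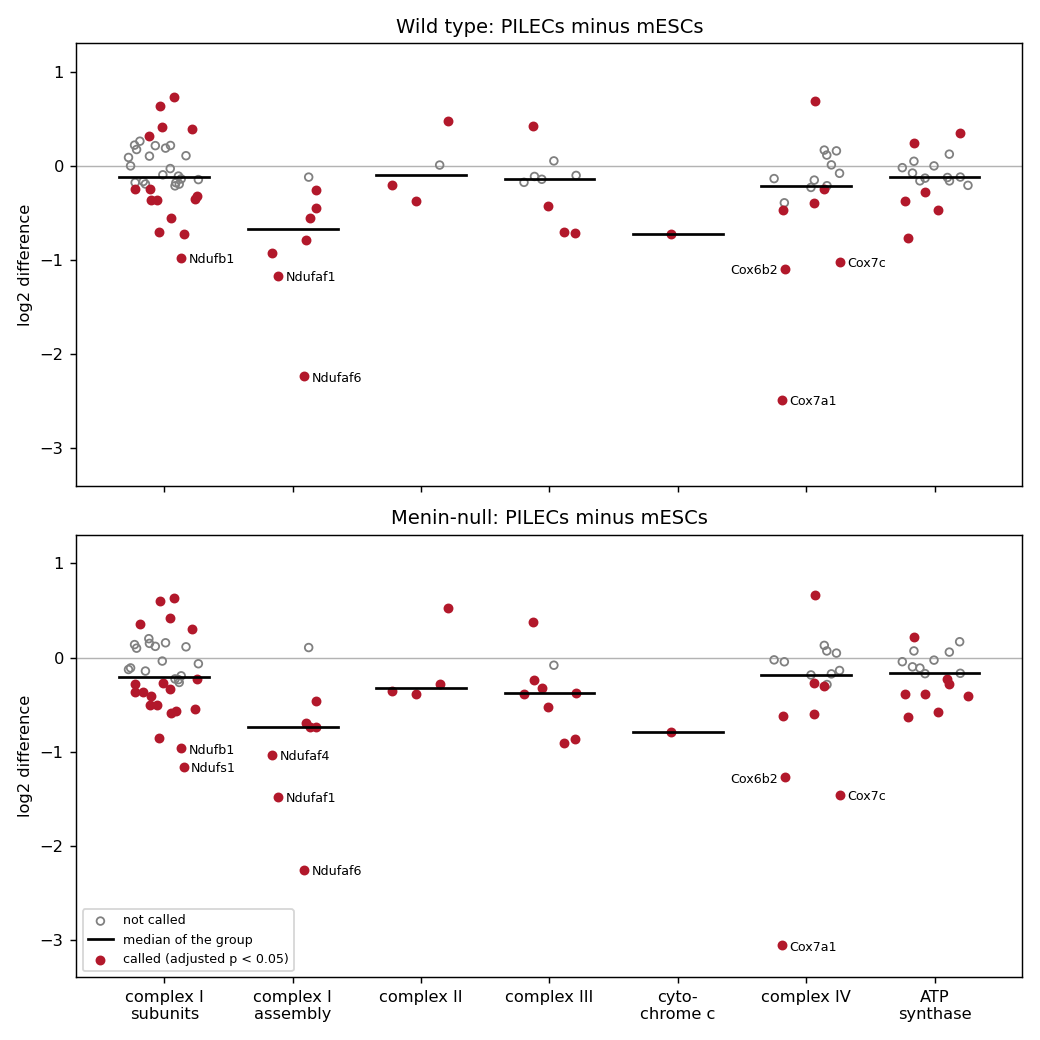
PILEC minus mESC log2 difference (vertical axis) of the 92 oxidative phosphorylation genes by complex (horizontal axis) in wt (top) and menin-null cells (bottom). Filled points passed the test, open points did not, and bars are medians; points spread sideways for visibility. Most points lie within 1 log2 unit of 0. The medians of the 8 assembly factors are -0.68 and -0.74, and the lowest point in both panels is Cox7a1 of complex IV.

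Of the 36 complex I subunits, 5 rose and 10 fell in wt cells, and 5 rose and 15 fell in menin-null cells. These are 41.7% and 55.6% called, against 63.1% and 65% of all genes. Ndufs1, the large iron-sulfur subunit that carries electrons within the complex, had log2 values of 11.74 and 11.77 in wt mESCs, 11.94 and 11.95 in menin-null mESCs, 11.05 and 11.01 in wt PILECs, and 10.73 and 10.84 in menin-null PILECs. Both PILEC groups lay below all mESC arrays. It fell by 0.73 in wt (SE 0.079, adjusted p = 6.6e-05 by limma) and by 1.16 in menin-null cells (SE 0.079, adjusted p = 3.72e-06). Ndufa9 fell by 0.71 and 0.86, and Ndufab1, the mitochondrial acyl carrier protein, by 0.56 and 0.59. Of the 4 other Ndufab1 probe sets, 2 had the same sign in each genotype. They ranged from -1.80 to 0.29 in wt and from -1.52 to 0.17 in menin-null cells. Ndufb1 fell by 0.98 and 0.96, with PILEC arrays near the lower limit of 7. The catalytic subunit Ndufv1 fell by 0.35 and 0.55.

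Ndufv3 and Ndufa3, small accessory subunits, moved the other way. Ndufv3 had log2 values of 11.55 and 11.49 in wt mESCs, 11.58 and 11.51 in menin-null mESCs, 12.34 and 12.15 in wt PILECs, and 12.13 and 12.21 in menin-null PILECs. For Ndufa3, whose window with the YY1 letters is given above, they were 12.00 and 12.05, 12.06 and 12.05, 12.75 and 12.56, and 12.61 and 12.69 in the same order. In both genes every PILEC array lay above every mESC array. Ndufv3 rose by 0.73 (SE 0.092) in wt and by 0.63 in menin-null cells, and Ndufa3 by 0.63 (SE 0.090) and 0.60 (limma adjusted p between 0.000175 and 0.000477 for these 4 differences). Ndufb9 rose by 0.39 and 0.30. Other subunits, such as Ndufs3 (differences of 0.00 and -0.11) and Ndufb6 (-0.15 and -0.07), did not pass, and Ndufb4 lay under 7 in all groups.

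Ndufa4 and Ndufa4l2 carry complex I names, although Ndufa4 is now counted with complex IV and Ndufa4l2 is its hypoxia-responsive relative. Ndufa4 differed by -0.10 in wt (adjusted p = 0.344) and fell by 0.27 in menin-null cells (adjusted p = 0.0198 by limma). Ndufa4l2 had log2 values of 7.43 and 7.55 in wt mESCs, 7.96 and 7.80 in menin-null mESCs, 7.90 and 7.60 in wt PILECs, and 8.29 and 8.18 in menin-null PILECs. Its menin-null arrays lay above the wt arrays of the same cell type, without overlap, as did those of 4381 of all 18193 genes in mESCs and 4490 in PILECs. Neither menin-null difference of Ndufa4l2 passed (limma adjusted p = 0.129 in mESCs and 0.0529 in PILECs). It rose by 0.36 in menin-null cells (adjusted p = 0.0297), and the difference of 0.26 in wt cells did not pass (adjusted p = 0.0922).

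The assembly factors, which build complex I but are no part of the finished enzyme, fell nearly throughout. Of 8, 7 fell in wt and 7 in menin-null cells, all but Ndufaf3. Of all genes 35.3% fell in wt and 36.1% in menin-null cells, and of those with a mean of at least 7, 45.6% and 47.2%. Ndufaf6 had log2 values of 10.21 and 10.25 in wt mESCs, 10.03 and 10.11 in menin-null mESCs, 8.08 and 7.91 in wt PILECs, and 7.81 and 7.82 in menin-null PILECs. Every PILEC array lay below every mESC array. It fell by 2.24 in wt (SE 0.088, adjusted p = 2.3e-07 by limma) and by 2.26 in menin-null cells (SE 0.088, adjusted p = 1.84e-07). Ndufaf1, which acts on an early intermediate, was at 9.83 and 9.85, 9.71 and 9.86, 8.73 and 8.62, and 8.26 and 8.34 in the same group order, and fell by 1.17 and 1.48. Ndufaf4 fell by 0.93 and 1.03, and Ndufaf7, a methyltransferase, by 0.79 and 0.70. Ndufaf2, Ndufaf5 and Ndufaf8 fell by 0.26 to 0.56 in wt and by 0.46 to 0.74 in menin-null cells. Ndufaf3 differed by -0.12 and 0.11.

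Complex II joins the citrate cycle to the respiratory chain, and its 4 genes did not move together. Sdha, the flavoprotein that oxidises succinate, had log2 values of 11.61 and 11.66 in wt mESCs, 11.54 and 11.71 in menin-null mESCs, 11.29 and 11.22 in wt PILECs, and 11.25 and 11.23 in menin-null PILECs. Sdhc, a membrane anchor, was at 11.67 and 11.67, 11.56 and 11.59, 12.17 and 12.12, and 12.08 and 12.12. Sdha was thus lower and Sdhc higher on every PILEC array. Sdha fell by 0.38 (SE 0.087, adjusted p = 0.00551 by limma) and 0.39, and Sdhc rose by 0.47 (SE 0.076, adjusted p = 0.000672) and 0.52. Sdhd, the other anchor, fell by 0.21 in wt (adjusted p = 0.0447, and between 0.059 and 0.275 in 7 alternatives that lost the call) and by 0.36 in menin-null cells. Sdhb, the iron-sulfur subunit, differed by 0.01 in wt and fell by 0.28 in menin-null cells.

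In complex III, 1 gene rose and 3 fell in wt cells, and 1 rose and 7 fell in menin-null cells. These are 44.4% and 88.9% called, against 63.1% and 65% of all genes. Cyc1, the cytochrome c1 that hands electrons to cytochrome c, had log2 values of 12.95 and 12.89 in wt mESCs, 12.93 and 12.96 in menin-null mESCs, 12.24 and 12.18 in wt PILECs, and 12.10 and 12.05 in menin-null PILECs. It fell by 0.71 in wt (SE 0.078, adjusted p = 6.93e-05 by limma) and by 0.87 in menin-null cells. The core subunit Uqcrc1 fell by 0.70 and 0.90, and Uqcr11 by 0.43 and 0.53. Uqcrh, the hinge protein next to Cyc1, rose by 0.43 (SE 0.102, adjusted p = 0.00661) and 0.38. Uqcrfs1, the Rieske iron-sulfur protein, differed by -0.10 in wt and fell by 0.38 in menin-null cells.

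Cytochrome c itself, the mobile carrier encoded by Cycs, was lower in PILECs. Its log2 values were 12.76 and 12.80 in wt mESCs, 12.53 and 12.62 in menin-null mESCs, 12.10 and 12.02 in wt PILECs, and 11.77 and 11.79 in menin-null PILECs. The groups did not overlap. Cycs fell by 0.72 in wt (SE 0.079, adjusted p = 6.92e-05 by limma) and by 0.80 in menin-null cells. Of its 3 other probe sets, 2 were lower in PILECs of both genotypes, and the remaining one, with means under 7, differed by 0.35 and 0.48.

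**Figure D2:**
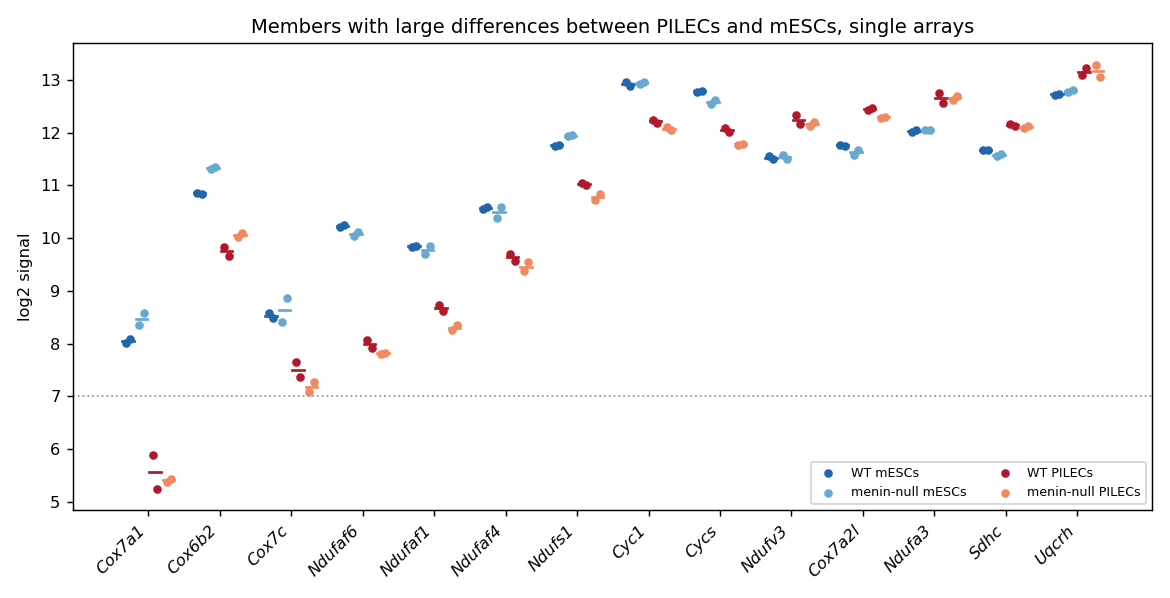
Log2 signal (vertical axis) of single arrays for 14 genes with large differences between PILECs and mESCs (horizontal axis), coloured by group, with a point per array and a line at each mean of 2 arrays; the dotted line marks a log2 value of 7. Levels of different genes are not comparable. Cox7a1 drops below 7 in PILECs, and the 5 genes on the right are higher in PILECs.

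Complex IV held the largest fall among the 92 genes and 1 of the larger rises. In wt cells 1 of 17 rose and 6 fell, and in menin-null cells 1 rose and 7 fell. These are 41.2% and 47.1% called, against 63.1% and 65% of all genes. Cox7a1, the isoform of heart and skeletal muscle, had log2 values of 8.01 and 8.10 in wt mESCs, 8.35 and 8.58 in menin-null mESCs, 5.88 and 5.24 in wt PILECs, and 5.37 and 5.44 in menin-null PILECs. It fell by 2.49 in wt (SE 0.19, adjusted p = 7.71e-06 by limma) and by 3.06 in menin-null cells (SE 0.19, adjusted p = 2.17e-06), to levels under 7 that are not shown to exceed background, so that the folds are approximate. In the same wt PILECs 11 of 17 striated muscle markers rose and 3 fell (Myh6, Ttn and Des). Cox7a2, the widely expressed isoform, differed by -0.08 and -0.14 and did not pass. Cox7a2l, which takes part in joining complexes III and IV, had log2 values of 11.77 and 11.75, 11.58 and 11.67, 12.42 and 12.47, and 12.28 and 12.30 in the same group order. It rose by 0.68 in wt (SE 0.078, adjusted p = 9.09e-05) and by 0.66 in menin-null cells, and its other probe sets were higher in PILECs too.

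Cox6b2, the testis isoform of subunit VIb, had log2 values of 10.86 and 10.83 in wt mESCs, 11.31 and 11.35 in menin-null mESCs, 9.84 and 9.67 in wt PILECs, and 10.01 and 10.10 in menin-null PILECs. All 4 groups were apart from each other. It fell by 1.09 in wt (SE 0.089, adjusted p = 1.13e-05 by limma) and by 1.27 in menin-null cells. Of 6 male germ cell markers none rose, and Cyct and Ldhc fell. Cox6b1, its widely expressed counterpart, differed by 0.16 and 0.05 and did not pass. Cox7c had log2 values of 8.57 and 8.48, 8.40 and 8.87, 7.65 and 7.36, and 7.08 and 7.27 in the same group order, and fell by 1.02 and 1.46; its probe set is dim, and every PILEC array lay below every mESC array. Of the common subunits, Cox5a fell by 0.48 and 0.62 and Cox5b by 0.24 and 0.30, whereas Cox4i1 differed by -0.15 in wt and fell by 0.27 in menin-null cells, and Cox6a1, Cox6c and Cox8a did not pass. Cox6a2, Cox8c and, under 7 in all groups, Cox4i2 and Cox8b did not pass either. Cox7b2 fell by 0.39 and 0.60 with means under 7.

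Of 17 ATP synthase genes 2 rose and 4 fell in wt cells, and 1 rose and 7 fell in menin-null cells. These are 35.3% and 47.1% called, against 63.1% and 65% of all genes. The catalytic subunits Atp5a1 and Atp5b fell by 0.28 and 0.38 in wt and by 0.38 and 0.39 in menin-null cells. Atp5l fell by 0.47 and 0.58. Atp5d rose by 0.24 and 0.22, and Atp5h rose by 0.35 in wt cells. The c subunit of the rotor ring is encoded by 3 genes. Atp5g1 fell by 0.77 and 0.64, but its other probe set, with means under 7, differed by 1.21 and 1.20 in the other direction. Atp5g2 and Atp5g3 did not pass, with differences between -0.16 and 0.00.

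Genes outside the definition that serve the same pathway were counted in the same way. Of 36 assembly and related genes (39 listed), 4 rose and 22 fell in wt cells, and 3 rose and 23 fell in menin-null cells, with the largest falls in wt for Cyct (-2.51), the testis cytochrome c, Lrpprc (-1.90), which stabilises mitochondrial mRNA, and Nubpl (-1.74), a complex I iron-sulfur factor. Of 17 genes of the citrate cycle and pyruvate dehydrogenase, 2 rose and 11 fell in wt, and 1 rose and 14 fell in menin-null cells. The largest falls in wt were those of Suclg2 (-1.69 and -1.97 in the 2 genotypes), Idh3a (-1.16 and -1.31) and Dlat (-1.16 and -1.20), a pyruvate dehydrogenase subunit. Of 9 carriers, 2 rose and 3 fell in wt, and 1 rose and 5 fell in menin-null cells. Beside these 3 lists, 27.8% of all genes rose and 35.3% fell in wt, and 28.9% rose and 36.1% fell in menin-null cells. Cyct had means under 7 in PILECs (5.27 in wt and 5.20 in menin-null cells), so that its fold is approximate. Slc25a31 fell by 2.56 and 1.87. The 2 adenine nucleotide carriers of somatic cells moved apart, Slc25a5 falling by 1.01 and 1.11 and Slc25a4 rising by 0.82 and 0.78.

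Regulators of mitochondrial biogenesis were mostly lower in PILECs. Of 22, 2 rose and 18 fell in wt cells, and 2 rose and 19 fell in menin-null cells. Of all genes 35.3% fell in wt and 36.1% in menin-null cells, and of those with a mean of at least 7, 45.6% and 47.2%. The medians of the 22 were -1.003 and -0.90, and their difference from the respiratory genes was not tested. The largest changes in wt cells were falls of Esrrb (-4.81 and -5.58), also a pluripotency factor, and Pprc1 (-2.82 and -2.86), and a rise of Esrrg (2.74 and 2.10). Of the factors whose sites were searched above, Nrf1 fell by 1.74 and 1.88, Gabpa by 1.43 and 1.74, and Yy1 by 0.71 and 0.32. Ppargc1a, the coactivator PGC-1alpha, rose by 2.47 and 2.71, and Tfam, the packaging factor of mitochondrial DNA, fell (-1.24 and -1.69). These 2 were singled out after their values were seen. The mESC means were under 7 for Ppargc1a (4.96 and 5.17) and Esrrg (4.76 and 5.02), so that their folds are approximate. Esrrg was at 6.58 and 7.66 on the menin-null PILEC arrays. Among the 12 genes with an NRF1 core in the window, 0 rose and 6 fell in wt and 0 rose and 7 fell in menin-null cells by limma, with medians of -0.30 and -0.40. Of the 19 genes with the ETS letters 2 rose and 6 fell in wt and 1 rose and 9 fell in menin-null cells (medians -0.12 and -0.17), and of the 10 with the YY1 letters 1 rose and 4 fell, and 2 rose and 6 fell (medians -0.20 and -0.32). These counts are descriptions, beside 46.7% and 60.9% called among the 92 genes and 63.1% and 65% among all genes.

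**Figure D3:**
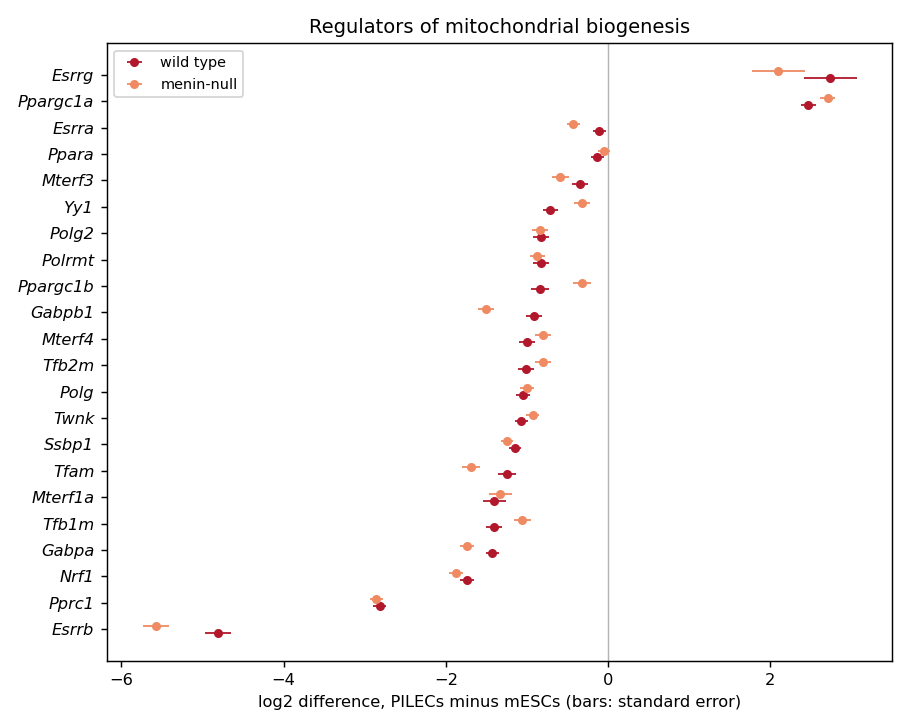
PILEC minus mESC log2 difference (horizontal axis, bars are standard errors) of 22 regulators of mitochondrial biogenesis (vertical axis) in wt and menin-null cells. Esrrg and Ppargc1a lie above 2 in both genotypes, and the other 20 lie below 0.

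The second comparison asked what loss of menin changed in mESCs. Of the 92 genes 1 rose and none fell, which is 1.09%, against 3.64% of all genes called (1.29% higher and 2.36% lower). The median was 0.02. Cox6b2, whose values are given above, rose by 0.48 (SE 0.089, adjusted p = 0.0316 by limma), and the adjusted p was between 0.0547 and 0.198 in 7 alternatives that lost the call, among them those without either wt mESC array. An unadjusted limma p under 0.05 was reached by 9 of the 92 genes, against 18.5% of all genes. They were Cox7b2, Ndufa13, Ndufa4l2, Ndufs1, Sdhb and Uqcrfs1 besides Cox6b2 above 0, and Cycs and Ndufaf3 below. Differences were above 0 for 8 of 9 complex III genes, 13 of 17 complex IV genes, 20 of 36 complex I subunits, 8 of 17 ATP synthase genes, 2 of 4 complex II genes, 2 of 8 assembly factors and not for Cycs, where 48.9% of all genes with a mean of at least 7 lay above 0.

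In PILECs, limma called 0 of the 92 genes, against 6.68% of all genes (2.26% higher and 4.42% lower). An unadjusted limma p under 0.05 was reached by 13 of the 92, 2 above 0 and 11 below, against 23.3% of all genes. The lowest adjusted p was 0.0515, for Ndufaf1, with a difference of -0.37 (SE 0.089), and Ndufa4l2 followed with 0.49 (SE 0.119, adjusted p = 0.0529). Complex I subunits Ndufs8 (-0.30), Ndufc2 (-0.29) and Ndufs1 (-0.24) and cytochrome c (-0.28) were among these 13. Differences were below 0 for 73 of the 92 genes, with a median of -0.06. Of the genes with a mean of at least 7, 82.8% of the oxidative phosphorylation genes and 62.9% of all genes lay below 0, with a median of -0.07 for all genes; with a mean of at least 10 the shares were 86.8% and 74.5%. With arrays quantile normalised again 53 of the 92 lay below 0, with a median of -0.02. Of the 2 wt PILEC arrays, array 1 was higher than array 2 for 82 of the 92 genes, by a median of 0.10, and the median difference was -0.01 without array 1 and -0.11 without array 2. In the same comparison 11 of 17 striated muscle and 5 of 8 pluripotency markers fell, and their part in these values was not tested. Among the isoforms of striated muscle, Cox6a2 differed by 0.22 and did not pass, and Cox7a1 and Cox8b had means under 7 in PILECs of both genotypes, where a difference may not be measurable.

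None of the 92 genes differed by 0.5 or more in either menin comparison; the largest differences were 0.48 for Cox6b2 in mESCs and 0.49 for Ndufa4l2 in PILECs. For all 92 genes the 95% interval of the menin-null difference lay within 2-fold in both cell types. It lay within 0.5 log2 units for 84 genes in mESCs and for 83 in PILECs. The exceptions in both cell types were Cox4i2, Cox6a2, Cox6b2, Cox7a1, Cox8b and Ndufa4l2, with Cox7b2 and Ndufaf3 in mESCs and Cox7c, Ndufaf1 and Ndufaf8 in PILECs. By comparison, 0.429% of all genes in mESCs and 0.857% in PILECs differed by at least 2-fold.

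**Figure D4:**
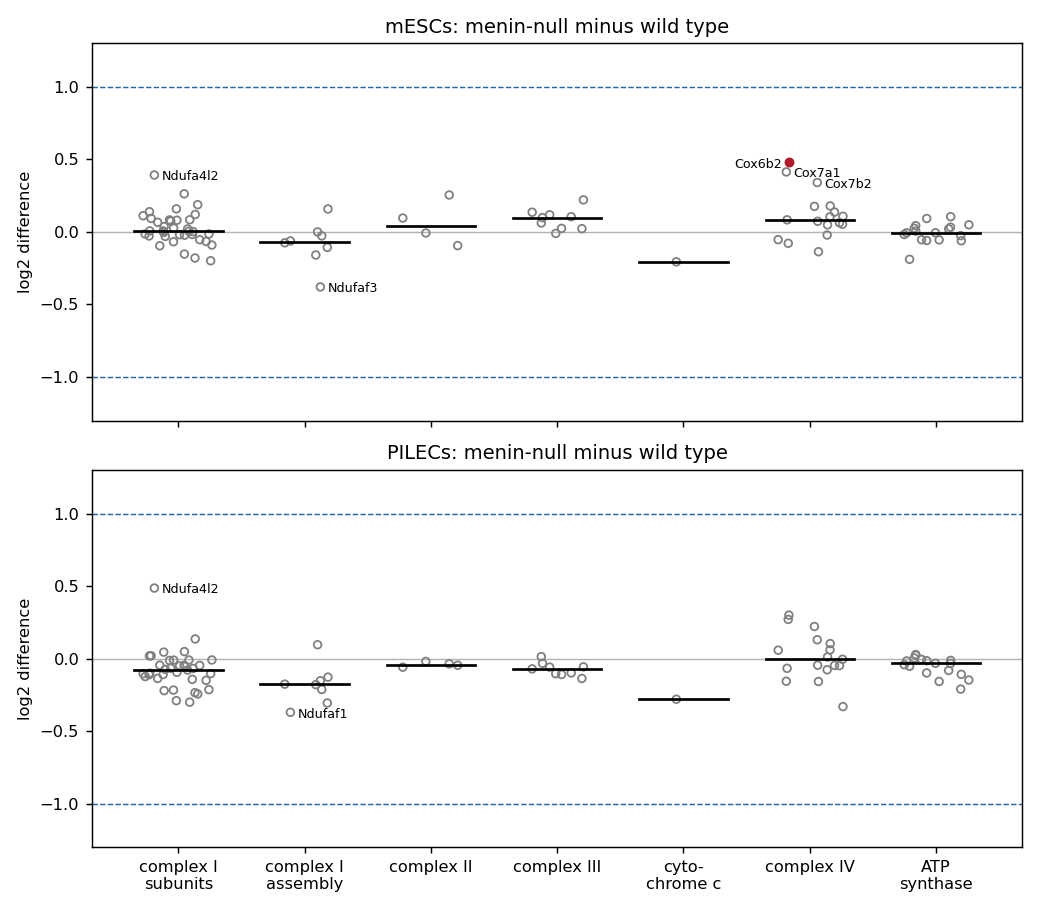
Menin-null minus wt log2 difference (vertical axis) of the 92 genes by complex (horizontal axis) in mESCs (top) and PILECs (bottom). The filled point, Cox6b2, passed the test, open points did not, bars are medians and dashed lines mark 2-fold; all points lie within 0.5 of 0.

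Whether the menin-null difference itself differed between PILECs and mESCs was tested as an interaction. Limma called 0 of the 92 genes, against 3.06% of all genes (1.5% higher and 1.57% lower), and 7 of the 92 had an unadjusted limma p under 0.05, all below 0, against 18.7% of all genes. For Ndufs1 the menin-null difference was 0.19 in mESCs and -0.24 in PILECs, a change of -0.43 (SE 0.112, adjusted p = 0.0923). For Ndufc2 it was 0.16 and -0.29 (change -0.45, adjusted p = 0.11), and for Ndufs8 0.08 and -0.30 (change -0.38, adjusted p = 0.127). Ndufa13, Ndufaf1, Sdhb and Uqcrfs1 made up the rest. The same change is the difference between the menin-null and wt values of the differentiation comparison. By this fit, the calls made in 1 genotype alone were thus not shown to differ between genotypes. With a variance trend in the model 9 of the 92 genes passed, all below 0 (9.78%, against 7.93% of all genes). They were Cox6c, Ndufa13, Ndufb7, Ndufc2, Ndufs1, Ndufs8, Sdhb, Uqcrb and Uqcrfs1.

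Regulators outside the definition showed a few menin-null differences. Of the 22 biogenesis regulators, 9.09% were called in mESCs, against 3.64% of all genes, and 13.6% in PILECs, against 6.68%. In mESCs Yy1 fell by 0.79 and Tfb1m by 0.60. In PILECs Ppargc1a rose by 0.45, Ppargc1b rose by 0.46 and Nrf1 fell by 0.37. In the list of the citrate cycle and pyruvate dehydrogenase, 11.8% were called in each cell type. In mESCs Idh2 rose by 0.60 and Dlst fell by 0.68, and in PILECs Dld (-0.44) and Dlst (-0.32) fell. Among assembly and related genes 2.78% were called in mESCs and 8.33% in PILECs. Cyct (-1.03, to a mean of 6.75) fell in mESCs, and Cox16 (-0.75), Higd1a (-0.62) and Cox20 (-0.43) fell in PILECs. Some calls in PILECs were close to the limit, with limma adjusted p of 0.0449 for Ppargc1b, 0.0462 for Nrf1 and 0.04999 for Dlst. Whether the calls in these lists held in the alternatives was not examined.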

How the data were processed

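Values are log2 signals, 1 per probe set and array, deposited by the authors; RMA and Partek are named in the submitters' processing notes, and the Microarray Analysis Suite of Affymetrix in the paper's methods, so the software that made them is unsettled. Of 45101 probe sets, 34945 with 1 gene symbol were kept, and 64 controls, 9160 without a symbol and 932 with several were left out. The members and gene lists were chosen with earlier results of these data known. Named genes were those with the largest called differences, isoform groups, complex II, Cyc1 and Cycs, plus up to 3 genes of each list. All 92 members matched RefSeq by Entrez ID.

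A mean per group was fitted to all 8 arrays with limma 3.58.1 (R 4.3.3, eBayes, 4 residual and 3.72 prior degrees of freedom), and p was adjusted over 18193 genes by Benjamini-Hochberg. The fit was tested on simulated data. Alternatives were renewed quantile normalisation, a replicate block, each array left out, only the arrays compared, other probe set rules, a minimum mean of 7 and a variance trend. The number of arrays limits the precision. Motif counts used python 3.11.15 and pandas 2.3.3, plots matplotlib 3.10.9.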

Additional observations from a re-analysis of the deposited data

How the results depend on the processing

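Of 34 differences of single genes with a test, 8 lost the call in some alternative and 2 reversed. Both reversals were Atp5g1 (PILECs minus mESCs), at 1.21 in wt and 1.20 in menin-null cells when probe sets of the s, x and a types were dropped, and at 0.22 and 0.29 with the mean of all its probe sets, where another probe set takes part. The menin-null count in mESCs, 1 of 92, was 0 on the 4 mESC arrays alone, against 0.066% of all genes. It was 8 with a variance trend (8.7%, against 7.53% of all genes). In PILECs the count of 0 became 3 with renewed quantile normalisation and 2 with the mean of probe sets. It was 7 with a minimum mean of 7 (8.05%, against 16.3% of all genes) and 12 with a variance trend (13%, against 13.1%). The wt differentiation count of 43 became 65 with a variance trend (70.7% against 63.4%), and the menin-null count of 56 became 69 (75% against 65.1%). These counts for menin loss and differentiation also shifted when 1 array was left out, which leaves 1 array in a group. The interaction count of 0 became 1 with a minimum mean of 7 (1.15%, against 7.4% of all genes) and 9 with a variance trend (9.78% against 7.93%). For menin loss in PILECs, the share called with renewed quantile normalisation was 3.26%, against 7.47% of all genes. With the mean of probe sets it was 2.17% against 5.62%. The cause of these shifts was not tested.

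No sign was seen that the replicate numbers pair the arrays, with correlations of the deviations between -0.277 and 0.209. Whether cultures of the same number were handled together is not known. With the number as a replicate block, menin loss gave 0 and 0 calls in mESCs and PILECs, against 2.25% and 4.03% of all genes. Differentiation gave 39 calls in wt and 53 in menin-null cells, against 61.9% and 64%, and the interaction 0, against 1.57%. With crossed numbers, chosen after seeing the data, the counts in the same order were 1, 1, 46, 59 and 0. The shares of all genes were then 4.28%, 8.31%, 64.9%, 67.2% and 3.7%.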
